A study of Mus musculus with 6 samples.

Results

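The regions described here are 5247 intergenic stretches of the mouse genome that carried CUT&Tag peaks in colon group 2 innate lymphoid cells (ILC2s) and lay between 2 and 50 kb from the nearest protein-coding gene. They were chosen from the peaks themselves. Peaks with a deposited q under 0.05 from 6 libraries were merged on chromosomes 1 to 19, X and Y into 43759 union regions. A region was kept, and is called a member below, when it was narrower than 4000 bp, had such a peak in at least 2 libraries and overlapped no protein-coding gene span. Of 29342 regions with a peak in at least 2 libraries, 17.9% met these conditions. A further 3932 intergenic regions at the same distances had a peak in 1 library only, and 4 were too wide. Since peak number and presence chose the members, how many libraries shared a member is given as a description.

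In CUT&Tag an antibody bound to chromatin directs a transposase, and the DNA it cuts nearby is sequenced. Which protein or histone mark the antibody bound is not stated, so a peak marks enrichment of an unnamed target. The ILC2s, labelled as from colon, were sorted after culture with IL-33, IL-25, IL-7 and IL-2, cytokines that sustain and activate them. Each of 3 groups had 2 libraries. Control cells had neither compound, FK866 cells received this inhibitor of NAMPT, the enzyme of NAD salvage, and the last group received FK866 together with succinate, which the tricarboxylic acid (TCA) cycle makes and uses. All groups shared the 4 cytokines. Dose, duration, mouse strain, sex and age are not given in the labels. Nor do these say whether the libraries of a group came from separate cultures or animals, so a p-value here reflects the spread between libraries, which may be technical.

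ILC2s are lymphocytes without rearranged antigen receptors that secrete type 2 cytokines in barrier tissues. DNA outside genes holds enhancers, which regulate genes over a distance through bound transcription factors, and insulators, which separate neighbouring domains. It also holds genes that encode no protein: long non-coding RNAs (lncRNAs), transfer RNAs (tRNAs) and microRNAs, the last of which pair with messenger RNAs mainly through the seed, bases 2 to 8 of the mature strand.

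Some members lay on such genes. Of the members, 19 overlapped 24 microRNA genes, and RefSeq (GRCm38.p6) gave mature sequences for 21 of these genes. The strands below are shown because their genes lay in the strongest members of this kind (miR-6516, miR-713, miR-7671 and miR-760), because the microRNA is widely known (miR-210 from hypoxia, and let-7i), or because the microRNAs of a pair share a seed. They are written 5′ to 3′ with the seed in capitals.
miR-6516-5p: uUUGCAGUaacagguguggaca
miR-713: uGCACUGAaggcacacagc
miR-7671-5p: aGGCUCCGcucuggcuagcuucc
miR-760-3p: cGGCUCUGggucugugggga
miR-210-3p: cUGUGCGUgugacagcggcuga
let-7i-5p: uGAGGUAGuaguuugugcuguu
miR-132-3p: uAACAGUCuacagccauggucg
miR-212-3p: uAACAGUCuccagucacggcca
The 3p strands of miR-132 and miR-212, whose genes lay in 1 member, had the same seed, AACAGUC.

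The starts of lncRNA genes lay in 318 members. Their promoters, from 250 bases before to 50 after the start, came from RefSeq (GRCm38.p6) on the strand of the gene. Of the 4 shown, Dancr and B930059L03Rik had the strongest members with an lncRNA start, 1700113A16Rik held 2 of the motifs searched, and the member of Gm16551 had peaks past the threshold only in the libraries without succinate. Motifs in capitals are GCCCCCT (the CTCF core) in Dancr, TGAGTCA (an AP-1 site) in B930059L03Rik, and GCCCCCT and CCGGAAG (an ETS site) in 1700113A16Rik.
Dancr: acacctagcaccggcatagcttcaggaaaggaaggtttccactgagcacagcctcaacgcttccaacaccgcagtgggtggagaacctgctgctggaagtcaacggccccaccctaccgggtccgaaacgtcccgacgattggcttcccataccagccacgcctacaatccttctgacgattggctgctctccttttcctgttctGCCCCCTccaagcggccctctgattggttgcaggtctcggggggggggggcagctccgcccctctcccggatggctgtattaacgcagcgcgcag
B930059L03Rik: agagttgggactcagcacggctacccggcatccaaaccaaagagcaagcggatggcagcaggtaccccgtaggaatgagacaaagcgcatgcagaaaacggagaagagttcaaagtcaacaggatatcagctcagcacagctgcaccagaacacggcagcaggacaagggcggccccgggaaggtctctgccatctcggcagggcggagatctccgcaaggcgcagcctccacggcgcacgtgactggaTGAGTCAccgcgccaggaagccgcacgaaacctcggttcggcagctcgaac
1700113A16Rik: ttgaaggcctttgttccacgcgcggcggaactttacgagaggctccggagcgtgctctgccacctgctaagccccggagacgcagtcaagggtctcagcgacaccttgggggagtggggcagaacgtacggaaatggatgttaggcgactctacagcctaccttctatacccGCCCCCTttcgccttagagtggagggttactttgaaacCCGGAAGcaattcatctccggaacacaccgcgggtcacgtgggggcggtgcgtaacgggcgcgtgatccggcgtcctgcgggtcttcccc
Gm16551: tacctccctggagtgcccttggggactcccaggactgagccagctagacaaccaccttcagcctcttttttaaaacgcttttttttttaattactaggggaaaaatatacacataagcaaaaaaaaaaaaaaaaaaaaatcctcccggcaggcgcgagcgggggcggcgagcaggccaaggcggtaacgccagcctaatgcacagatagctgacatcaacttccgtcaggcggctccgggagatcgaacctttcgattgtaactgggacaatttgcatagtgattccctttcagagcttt
The ratio of observed to expected CpG was 0.649 in the Dancr promoter (chr5:74092810-74093109, plus strand), 0.834 in B930059L03Rik (chr12:110591124-110591423, plus), 0.993 in 1700113A16Rik (chr3:88177736-88178035, minus) and 0.801 in Gm16551 (chr9:74848187-74848486, plus). All 4 exceeded 0.6, a usual mark of a CpG island, but they were picked from 8 promoters read. Of the 6 strongest members with an lncRNA start, 5 had a ratio above 0.6, and the third strongest, Gm10777, had 0.28 and none of the motifs.

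Library by library, members with a peak numbered 3903 and 4121 in Control, 4161 and 3809 in FK866, and 3610 and 3640 in FK866 plus succinate. Both libraries with succinate lay below the other 4. Peaks covered on average 57.0% and 59.0% of a member's width in Control, 59.5% and 53.5% in FK866, and 51.3% and 50.8% with succinate, in the same order. The share of each list's peaks that lay in members differed less, between 13.9% and 15.0%. Past-threshold peaks over the whole genome numbered between 25187 and 28269 per library. The lists give no read counts, so the depth of the libraries is unknown and its part in these counts was not tested.

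**Figure D1:**
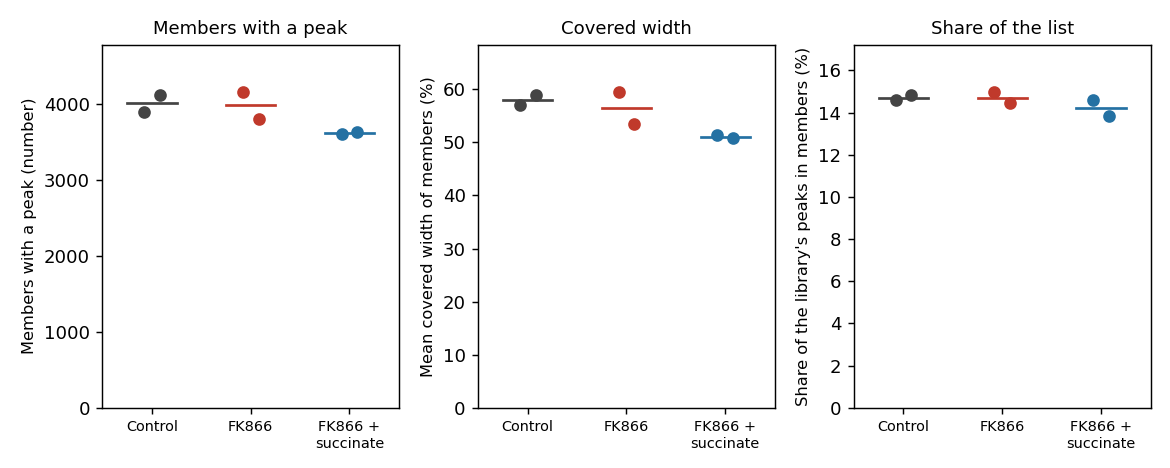
Each point is a library and each line the mean of the 2 libraries of a group. The panels plot the number of members with a peak past the threshold, the mean percentage of a member covered by peaks, and the percentage of the library's peaks that lay in members. FK866 plus succinate is lowest for the first pair of measures. In the third it overlaps FK866 and lies below both Control libraries, its first library narrowly (14.59% against 14.60% in Control 1).

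The 12 ILC2 marker genes all had a peak in each library, over a summed 62.8 to 76.1 kb. Peaks were also present at markers of other cells. T cell markers with a peak numbered 4 to 7 of 9, with Cd8a and Cd8b1 at 0 in all libraries. Of the 9 ILC1 and NK markers 4 or 5 had a peak, with Ifng, Klrb1c, Klrd1 and Ncr1 at 0 throughout, and of the 8 ILC3 markers 1 to 3, with Il17a, Il17f, Il22 and Il23r at 0. B cell markers with a peak numbered 4 or 5 of 6 (Ms4a1 at 0), myeloid markers 4 or 5 of 8 (Lyz2, Csf1r and Adgre1 at 0) and mast cell markers 0 or 1 of 6. Epithelial markers with a peak numbered 2 to 6 of 8. Their summed covered length was 6.60 and 5.92 kb in Control, 3.66 and 5.17 kb in FK866, and 2.45 and 1.72 kb with succinate, with Krt20 and Muc2 at 0 throughout. Both succinate libraries, which had the fewest members, were lowest here. They were also lowest in the summed length at ILC2 markers (62.8 and 68.1 kb, against 68.5 kb or more), at B cell markers (6.38 and 4.90 kb, against 6.51 kb or more) and at myeloid markers (6.04 and 5.91 kb, against 6.34 kb or more). The same held at ILC1 and NK markers (8.195 and 8.512 kb, against 8.675 kb or more). Other sets differed. ILC3 markers were lowest in the first succinate library (2.599 kb) and highest in the second (4.971 kb). T cell markers were lowest in Control 1 (6.98 kb, against 7.596 and 8.622 kb with succinate). The only mast cell peak lay in the second succinate library. The part of other cells in the result was not tested.

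Most members were either shared by all libraries or seen in few of them. All 6 libraries had a peak in 2380 members (45.4%), and 1143 (21.8%) had one in 2 libraries, with 727, 488 and 509 in 3, 4 and 5 libraries. Members of 2 libraries had a median width of 657 bp and those of all 6 a median of 1390 bp. Strength is given below as a percentile, the rank of a region's best -log10 p within its library's list, averaged over the 6 libraries with 0 where a peak was missing. Its median over members was 46.6, against 83.9 for regions within 2 kb of a gene end. It was 45.3 for regions deeper inside genes and 50.5 for those beyond 50 kb from any gene. Of those gene-end regions 84.8% were shared by all 6 libraries, as were 44.5% of regions deeper inside genes and 49.0% of those beyond 50 kb from any gene.

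**Figure D2:**
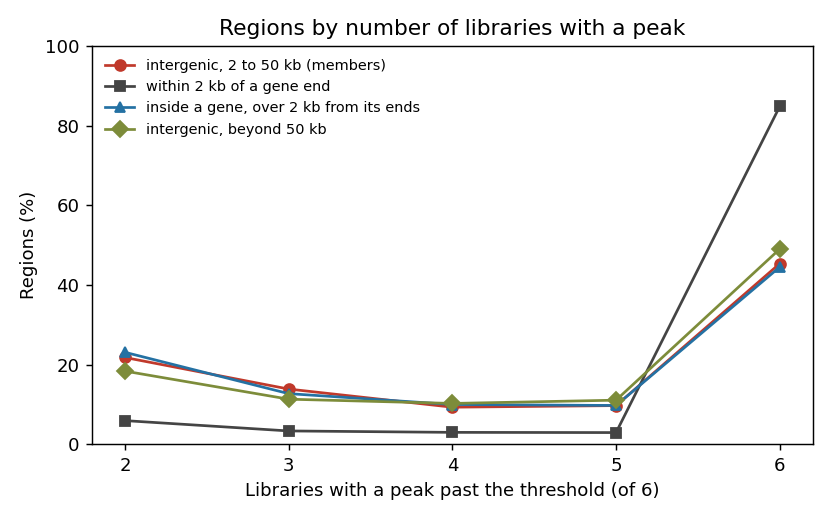
The horizontal axis is the number of libraries with a peak past the threshold, from 2 to 6, and the vertical axis the percentage of regions of each kind. Members (red) peak at both ends of the axis, at 21.8% and 45.4%, close to intragenic and distant intergenic regions, while 84.8% of gene-end regions lie at 6.

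Where peaks recurred, their summits fell at similar places. The range of summit positions over the libraries had a median of 202 bp in the members shared by all 6. It was 147 bp in gene-end regions, 226 bp in regions deeper inside genes and 245 bp in those beyond 50 kb. Members lay a median of 11116 bp from the nearest protein-coding gene. The share with a peak in all 6 libraries was 44.2% at 2 to 5 kb, 40.8% at 5 to 10 kb, 47.8% at 10 to 20 kb, 45.7% at 20 to 30 kb and 51.1% at 30 to 50 kb, with no steady order. Where the gene's strand was known, 2271 members lay upstream of their nearest gene and 1855 downstream, a split of 55.0% and 45.0%.

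At the edges of the rule, the member nearest to a gene (chr2:29819524-29821210) lay 2002 bp from Slc27a4, and a region 1999 bp from Sertad2 was just outside. The farthest member lay 49941 bp from Psd2, and a region 50116 bp from Smug1 was outside. The second-highest -log10 q was 1.3026 at the weakest member, near Mogat2, and 1.2992 at the strongest region left out, near Clasp2. The widest member spanned 3938 bp near Trappc6b. Among the 4 regions left out for their width were those over the nuclear lncRNAs Malat1 (4093 bp) and Neat1 (4096 bp).

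The highest percentiles belonged mostly to short, tall peaks of nearly the same width in every library. The member near Mrgprd, which encodes a receptor of sensory neurons (chr7:145340932-145341456), was covered over its full 525 bp in every library, with fold enrichments over the local background of the same library between 29.5 and 31.1. The member near Tmem196 (chr12:120028663-120029020) was covered over all 358 bp in every library, with folds from 33.3 to 34.5. Those near Gm45871 on chromosome 18 and near Gm14496 (chr2:182012728-182013224) were of the same kind, with folds from 31.2 to 32.6. A wider one lay near 4930467E23Rik (chr8:19784344-19785591), covered over 947 to 1240 bp with folds up to 20.2. None of these 5 held an lncRNA start. No filter for repeats or for regions of artefactually high signal was applied to the deposited peaks here. Whether these 5 are regions of that kind was not tested.

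The next strongest lay at lncRNA starts or near other members. Dancr, an lncRNA studied in progenitor cells, started within a member 24232 bp upstream of Usp46 (chr5:74092643-74094273). Its covered length was 1613 and 1556 bp in Control, 1586 and 1570 bp in FK866, and 1471 and 1578 bp with succinate, so the groups overlapped. The start of B930059L03Rik lay in a member 7546 bp downstream of Ppp2r5c (chr12:110590621-110592328), covered over 1683 and 1598, 1567 and 1589, and 1669 and 1465 bp in the same order. The member near Pdia4, an endoplasmic reticulum chaperone gene (chr6:47771836-47773196), lay just beyond a run of 9 members near Gm40363, of which 8 were shared by all libraries.

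Members at non-coding genes were found in more libraries than members away from them. In all, 1521 members (29.0%) overlapped some non-coding gene, 1203 of them an lncRNA. Of the 318 with an lncRNA start 75.2% had a peak in all 6 libraries, as did 88.6% of the 88 with a tRNA gene, 73.7% of the 19 with a microRNA gene and 51.5% of the 134 with a pseudogene. Among the 3726 with none the share was 41.4%. The median percentile was 70.7 at lncRNA starts, 78.3 at tRNA genes, 76.1 at microRNA genes and 42.4 at members without a non-coding gene. Members at non-coding genes were also wider. Their median width was 1520.5 bp at lncRNA starts, 1694.5 bp at tRNA genes, 1631 bp at microRNA genes and 1113 bp at pseudogenes. It was 1004.5 bp in members without a non-coding gene. A wider member can overlap a gene more easily, and the part of width was not tested. These are descriptions of regions that peaks had chosen, and members at 1 gene or cluster share their source.

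**Figure D3:**
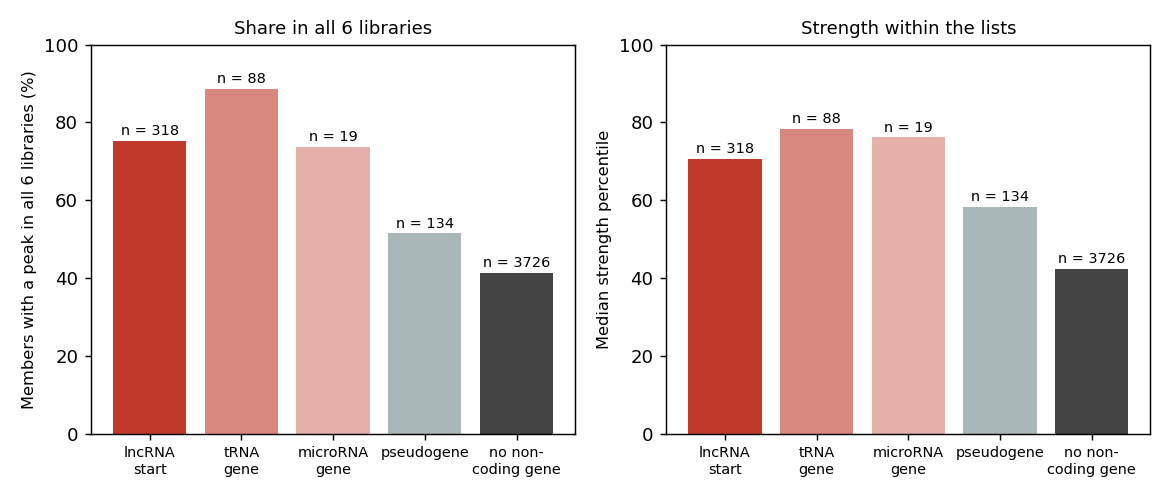
Bars give, for members overlapping each kind of non-coding gene and for those overlapping none, the percentage with a peak in all 6 libraries and the median strength percentile. The numbers above the bars are members. Members at tRNA genes stand highest at 88.6% and 78.3, and members with no non-coding gene lowest at 41.4% and 42.4.

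Genes for tRNA lay in 1.68% of members, against 0.34% of gene-end regions, 0.04% of regions deeper in genes and 0.25% of those beyond 50 kb. These shares depend on where tRNA genes lie and were not tested. The 4 strongest of these members held a glycine tRNA gene near Fcgr3 (n-TGgcc4, percentile 97.5), an isoleucine tRNA gene near Haao (n-TIaat17, 95.5), a tryptophan tRNA gene near Slc47a1 (n-TWcca5, 94.9) and a pair of proline tRNA genes near Rcsd1 (n-TPagg2 and n-TPcgg2, 92.6). At the last (chr1:165641555-165643279) peaks covered between 94.3% and 99.4% of the member in each library.

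Of 3750 lncRNA starts at 2 to 50 kb from protein-coding genes, 369 (9.84%) lay in a member. Members held 1 more start, that of Platr30, which lay beyond 50 kb while the edge of its member did not. The promoters in members differed in base composition from those that no region touched. Their median ratio of observed to expected CpG was 0.427, and 32.7% exceeded 0.6, against 4.22% of the 3364 starts outside all regions. The share above 0.6 was 39.9% at starts in members shared by all libraries, 11.7% at starts in members of 2 to 5 libraries and 47.6% over all protein-coding starts.

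Both strands of these promoters were searched for 6 motifs. The ETS motif CCGGAAG was in 10% of the 370 promoters in members, 2.79% of those outside all regions and 11.6% of protein-coding promoters. The CTCF core GCCCCCT was in 9.46%, 4.58% and 12.9%, and the RUNX motif TGTGGTT in 9.46%, 6.63% and 4.71%. Shares were closer for the AP-1 motif TGANTCA (11.9%, 10% and 6.99%), the GATA motif AGATAA (14.6%, 14.5% and 9.65%) and the NF-kB motif GGGANTTCC (1.35%, 1.28% and 1.84%). A match describes letters in a window of 300 bases and not a bound site.

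Peaks around these starts leaned into the gene. They covered a mean of 79.9% of the 370 starts over the libraries, rose to 81.9% at 150 bp inside, and still covered 30.7% at 1000 bp inside but 10.2% at 1000 bp before the start. The height at the start follows from choosing starts that lie in members. The lean to one side was not compared with starts outside the rule, which leaves out regions near protein-coding genes. Libraries differed little, with between 75.4% and 83.5% of starts covered.

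**Figure D4:**
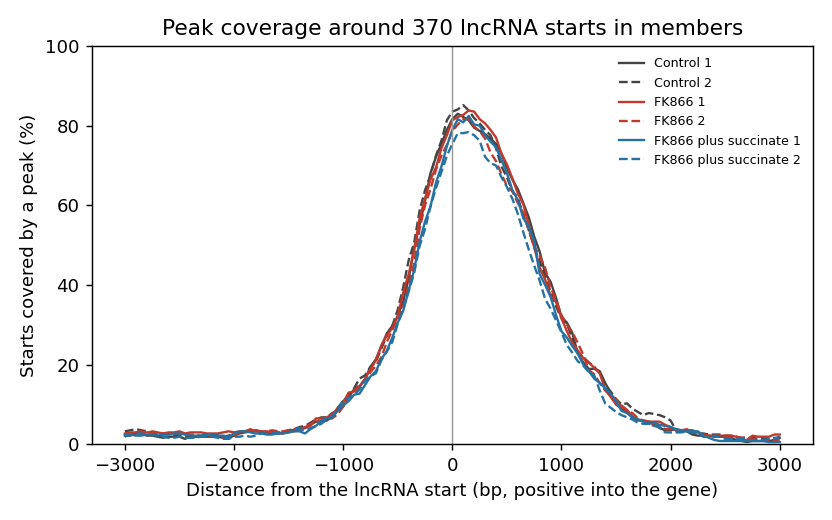
The horizontal axis is the distance in bp from the start of 370 lncRNA transcripts in members, positive into the gene, and the vertical axis the percentage of starts covered by a peak in each of the 6 libraries. All lines peak just inside the start and fall more slowly on the gene's side.

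Among microRNA genes, Mir6516 lay with the start of the snoRNA host gene Snhg20 in the strongest member (chr11:117076274-117077907, percentile 97.7), Mir713 in one near Gm5141 (96.2), Mir7671 in one near Irf1 (92.3) and Mir760, together with a tRNA gene, in one near Dnttip2 (88.3). The gene of let-7i, a microRNA of the let-7 family, lay in a member of 3647 bp (chr10:122983098-122986744) covered over between 3458 and 3499 bp in every library. At Mir132 and Mir212 (chr11:75172603-75173869) the covered length lay between 1056 and 1266 bp. At Mir210, a known target of hypoxia-inducible factor (chr7:141221014-141222389, near Rassf7), it was 1280 and 1277 bp in Control, 1376 and 1280 bp in FK866, and 1046 and 975 bp with succinate. Both succinate libraries were below the other 4, but the member's change against FK866 of -23.1 percentage points of its width (SE 5.24) had an adjusted p of 0.365 from limma over all regions.

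Members often came in groups. The median distance to the next member was 13161 bp, and 2363 (45.0%) had another within 10 kb. They had 3374 nearest genes, of which 2276 had 1 member and 78 had 5 or more. The longest runs were 11 members near Gas8, 11 near Atg7, which acts in autophagy, 10 near the small GTPase gene Rhou and 9 each near Gm40363 and Irf2bpl. Runs differed in constancy. Peaks in all 6 libraries were found at 1 of the 11 members near Atg7 and 3 of the 11 near Gas8, but at 8 of the 9 near Gm40363 (chr6:47744081-47766187), where the median percentile was 92.6. A further run of 8 near BC107364 included 3 with a tRNA gene.

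Genes of the ILC2 program were often the nearest to a member. Of 61 genes in a list of ILC2 regulators, cytokines and receptors, 38 (62.3%) were nearest to at least 1 member, beside 15.4% of all 21883 protein-coding genes, a difference that was not tested. The list had 92 members, of which 38 (41.3%) were shared by all libraries, near the 45.4% over all members. Id2, a regulator that all innate lymphoid cells need, had 6 members, and Csf2, Icos, Il10 and Nmur1 had 5 each. The strongest member of Id2 (chr12:25099214-25101270) was covered over 91.9% and 98.1% in Control, 99.7% and 93.4% in FK866, and 94.7% and 92.0% with succinate. At Arg1, which encodes arginase (chr10:24958260-24960132, in the lncRNA Gm36228), the values were 96.7% and 95.8%, 94.0% and 89.5%, and 96.3% and 97.5%. Both members were nearly filled in every library.

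The strongest members of cytokine and receptor genes varied more. At Il7r, which encodes the IL-7 receptor (chr15:9533424-9535810), peaks covered 2125 and 1352 bp in Control, 1755 and 939 bp in FK866, and 945 and 745 bp with succinate. The FK866 libraries overlapped both other groups, and the mean change from Control to FK866 plus succinate was -37.4 points (SE 24.4, limma adjusted p = 0.608). At Klrg1, a receptor of mature ILC2s (chr6:122257623-122259583), they covered 1854 and 1573, 1779 and 1912, and 1442 and 997 bp. Both succinate libraries lay lowest (-31.9 points against FK866, SE 10.5, adjusted p = 0.365).

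Other members of this list kept peaks in all libraries. The strongest member near Il1rl1, the gene of the IL-33 receptor, was covered over 874 and 859 bp in Control, 648 and 727 bp in FK866, and 855 and 462 bp with succinate. Both FK866 libraries lay below Control, and the succinate libraries spanned a wider range than either (limma adjusted p of 0.960 for FK866 against Control). Near Il5, the cytokine gene, the values were 763 and 609, 883 and 909, and 795 and 1273 bp, with both Control libraries lowest (adjusted p of 0.960 and 0.616 for FK866 and for FK866 plus succinate against Control). Another Il5 member (chr11:53728396-53729067) ran the other way, with 565 and 319 bp in Control, 0 and 660 bp in FK866, and no deposited peak in either succinate library. Near Il4ra, a receptor chain for IL-4 and IL-13, they were 785 and 1121, 910 and 685, and 1043 and 797 bp, and the groups overlapped. The strongest members of Cish, Bhlhe40, S1pr1, Runx3 and Csf2 had percentiles between 68.5 and 75.4.

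FK866 was set against Control to ask what changes when NAMPT is inhibited. Below, lost means a peak in each library of the group named last and in none of the group named first, and gained means the reverse; neither is a test. With FK866, 186 members (3.54%) were lost and 172 (3.28%) gained. Over all regions with a peak in at least 2 libraries the shares were 2.37% and 2.16%. Since any 2 libraries admit a member, 102 of the lost and 87 of the gained entered through the very libraries that define the call, and 84 and 85 remained with a peak required in at least 3 libraries. Weaker deposited peaks, below the threshold, were found in at least 1 FK866 library at 55.9% of the lost members and in at least 1 Control library at 75% of the gained.

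The lost member with the greatest mean covered length in Control lay 20070 bp upstream of Cmklr1, the gene of the chemerin receptor (chr5:113670545-113673025). It was covered over 2481 and 485 bp in Control and 0 bp in the other 4 libraries, of which 3 had a weaker peak. Those weaker peaks covered 602 bp in the first FK866 library and 386 and 276 bp with succinate. Near Mrtfb, a coactivator of serum response factor (chr16:13427855-13429293), coverage was 1022 and 1239 bp in Control and 0 bp elsewhere, and the FK866 libraries had no weaker peak, while those with succinate had weaker peaks of 436 and 341 bp. The members near Fam98b (1375 and 1151 bp in Control) and Hmgb1, which encodes a chromatin protein and alarmin (1454 and 973 bp), were at 0 bp in FK866. Weaker FK866 peaks of 505 and 1232 bp lay at Hmgb1, and one of 498 bp in the second FK866 library at Fam98b. Succinate libraries had 267 and 753 bp at Fam98b, and 794 and 0 bp at Hmgb1.

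Gained with FK866 was a member at the start of the lncRNA Gm39044, 11851 bp upstream of Abhd17c (chr7:84163744-84165350). It had 0 bp in both Control libraries, 1607 and 966 bp in FK866, and 753 and 976 bp with succinate, so all 4 treated libraries had the peak. Weaker peaks of 466 and 297 bp were deposited for Control. The members near Ier5, an immediate early gene (1301 and 967 bp in FK866), the cytochrome oxidase assembly gene Coa7 (862 and 1331 bp) and Emsy (975 and 1039 bp) were past the threshold in neither Control nor succinate libraries. Weaker peaks lay in both Control libraries near Ier5 and Coa7 and in 1 of them near Emsy.

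limma, fitted to the covered percentage of all 29342 regions, called no member for FK866 against Control at an adjusted p under 0.05 (0% of all regions). At an unadjusted p under 0.05, 161 members were wider and 180 narrower, or 3.07% and 3.43%, beside 2.57% and 2.81% of all regions. Admission of a member by any 2 libraries bears on these counts as well. With a peak required in at least 3 libraries, 88 were wider and 92 narrower of 4104 members. The smallest p among members belonged to one near Cemip, a gene of hyaluronan breakdown (chr7:83927743-83928168). Its covered length was 0 and 0 bp in Control, 395 and 384 bp in FK866, and 426 and 390 bp with succinate. No deposited peak of any strength lay there in Control, and the change of 91.4 points (SE 18.5) had an adjusted p of 0.899. A member near Ywhaz, which encodes a 14-3-3 protein (chr15:36726912-36728131), had peaks in every library, of 867 and 912 bp in Control, 1172 and 1170 bp in FK866, and 1161 and 1151 bp with succinate. The 4 treated libraries all lay above Control (23.1 points, SE 4.76, adjusted p = 0.899), as they did near Agps, a gene of ether lipid synthesis, with 0 bp past the threshold in Control (weaker peaks of 396 and 560 bp) and between 525 and 670 bp in the others.

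**Figure D5:**
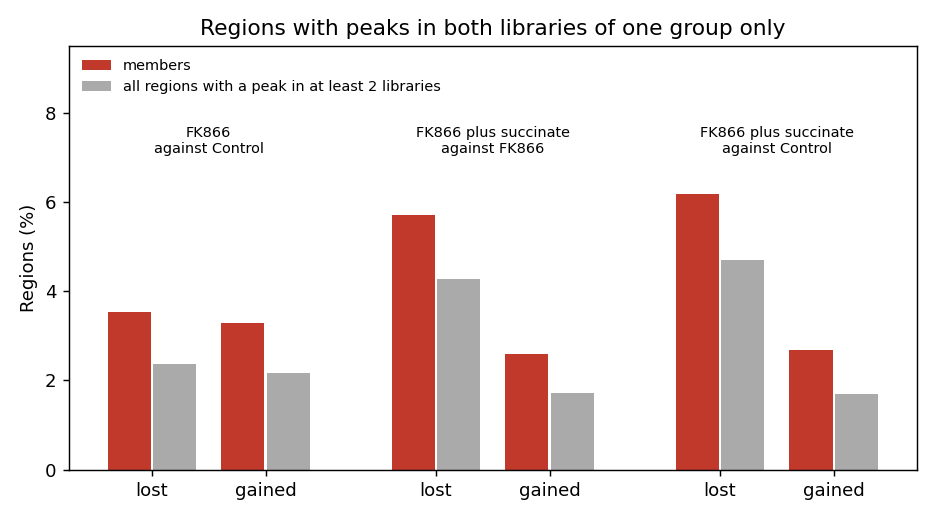
Bars give the percentage of regions lost and gained in each of the 3 comparisons, red for the members and grey for all 29342 regions with a peak in at least 2 libraries. Members exceed the background in each pair of bars, and losses exceed gains most in the comparisons that include succinate. Gene-end regions make up 45.7% of the background. Of those, 84.8% have a peak in all 6 libraries and so can be neither lost nor gained. Members are not set beside intragenic or distant intergenic regions here.

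Adding succinate to FK866 asks how the cells differ from those given the inhibitor alone. Members lost numbered 300 (5.72%) and gained 136 (2.59%), beside 4.28% and 1.72% of all regions. With a peak required in at least 3 libraries they numbered 213 and 77. Weaker peaks remained in at least 1 succinate library at 79% of the lost members. When every deposited peak was counted the balance turned, to 399 lost (3.66%) and 802 gained (7.35%) of the 10914 members under that setting. The shares over all regions under that setting were not computed, so the turn cannot be read as particular to members. Both Control libraries had a peak at 104 of the 300 lost members and neither did at 87.

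Of the lost members, one near Dapk2, a death-associated kinase gene (chr9:66280394-66282287), was covered over 1116 and 1638 bp in Control, 1598 and 1665 bp in FK866 and 0 bp in both libraries with succinate. The deposited lists held weaker peaks of 816 and 1059 bp there with succinate. At Spin1, a reader of histone methylation (chr13:51087904-51090678), FK866 had 2656 and 2091 bp and Control 421 and 0 bp, with weaker succinate peaks of 1304 and 1226 bp. Members near the interferon regulatory factor gene Irf1 (1189 and 2035 bp in FK866) and near Pmm1 (1527 and 1105 bp) had 0 bp above the threshold with succinate. Pmm1 makes mannose phosphate for glycosylation. Weaker succinate peaks covered 2220 and 620 bp at Irf1, the first more than in either FK866 library. At Pmm1 they covered 681 and 257 bp.

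The gained member with the greatest mean covered length with succinate lay 18806 bp upstream of Gnaq, which encodes a G protein alpha subunit (chr19:16112213-16113878). It was covered over 1546 and 1331 bp with succinate and 0 bp in the other 4 libraries, 3 of which had a weaker peak. Those weaker peaks covered 1355 and 271 bp in Control and 520 bp in the first FK866 library. Near Lif, a cytokine gene (chr11:4288201-4290039), peaks covered 0 and 1349 bp in Control and 0 bp in both FK866 libraries. With succinate they covered 1776 and 1052 bp. Every library had some deposited peak there, and the weaker FK866 ones covered 758 and 1169 bp. A member near Naaladl1 (chr19:6101792-6103188) was also gained, with 1294 and 930 bp with succinate, 0 bp in both FK866 libraries, and 357 and 409 bp in Control.

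limma called 0 members for this comparison (0% of all regions). At an unadjusted p under 0.05, 131 were wider and 358 narrower, beside 2.1% and 9.28% of all regions. As shares of members these are 2.5% and 6.82%. With a peak required in at least 3 libraries, 91 were wider and 287 narrower of 4104 members. The median member was narrower by 3.18 points and the median region by 3.89, but the members' median was 0 without the first FK866 library. After quantile normalization of the libraries the medians were 0.73 points wider and 0.07 points narrower, and 196 members were wider and 243 narrower, so the direction of the shift depends on the scaling. With every deposited peak counted, 608 were wider and 431 narrower. The median member was then 1.49 points wider and the median region 1.17 points narrower.

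Among the members with the smallest limma p was one 3878 bp upstream of Tnfrsf18, which encodes the costimulatory receptor GITR (chr4:156021589-156022444). Peaks covered 716 and 825 bp in Control, 810 and 834 bp in FK866, and 0 bp in both succinate libraries, where weaker peaks of 396 and 287 bp were deposited. The 4 libraries without succinate lay between 716 and 834 bp, and the change was -96.0 points (SE 18.8, adjusted p = 0.365). A member over Norad, an lncRNA that binds Pumilio proteins, near Cnbd2 (chr2:156391281-156393033), kept its peak in every library but at 1449 and 1342 bp with succinate, against 1714 to 1751 bp in the others (-19.3 points against FK866, SE 3.45, adjusted p = 0.365). The member 4414 bp from Ier5 (chr1:155091321-155091953) was covered over 580 and 633 bp in Control, 625 and 633 bp in FK866, and 312 and 421 bp with succinate. In both cases the succinate libraries did not overlap the rest.

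FK866 plus succinate was also set against Control, a comparison that shares its libraries with the other 2. It had 324 members lost (6.17%) and 141 gained (2.69%), beside 4.71% and 1.7% of all regions, and 222 and 82 with a peak required in at least 3 libraries. Of the lost members 104 had peaks in both FK866 libraries and 102 in neither. Dyrk1a, a kinase gene, had a lost member (chr16:94698037-94699465) with 1303 and 1429 bp in Control, 1225 and 1141 bp in FK866, and 0 bp with succinate, where the first library held a weaker peak of 1195 bp. Rpl11 had one with 1977 and 700 bp in Control, 0 and 1297 bp in FK866, and weaker succinate peaks of 1333 and 397 bp. Gained members lay near Ctr9, a subunit of the PAF complex of transcribing polymerase (1551 and 1014 bp), and at the start of the lncRNA Gm41538 near Vmn2r97 (1054 and 1089 bp). The Ctr9 member had no deposited peak in Control, while that of Gm41538 had weaker Control peaks of 563 and 618 bp and 786 bp past the threshold in the first FK866 library.

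limma called 0 members here as well (0% of all regions). At an unadjusted p under 0.05, 125 were wider and 378 narrower (2.38% and 7.2%), beside 2.04% and 9.98% of all regions. With a peak required in at least 3 libraries, 84 were wider and 316 narrower of 4104 members. The median member was narrower by 4.26 points, by 0.92 points without the second Control library, and was 0.85 points wider after quantile normalization, when 239 members were wider and 246 narrower at an unadjusted p under 0.05. At the start of the lncRNA 5830416I19Rik near Pgm2 (chr5:64044735-64046119) the covered length was 1364 and 1357 bp in Control, 1233 and 1273 bp in FK866, and 944 and 914 bp with succinate. The 3 groups did not overlap in this member (-31.2 points against Control, SE 5.94, adjusted p = 0.338).

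Of the 318 members with an lncRNA start, 8 (2.52%) were lost and 5 (1.57%) gained for succinate against FK866. The shares were 5.72% and 2.59% of all members, and 4.28% and 1.72% of all regions. Of the 318, 75.2% had a peak in all 6 libraries, against 45.4% of all members. Such members can be neither lost nor gained, so the lower shares are no result about lncRNA starts. The member at the start of Gm16551, shown above, lay 12365 bp upstream of Onecut1 (chr9:74848213-74849556). It was covered over 1157 and 1197 bp in Control, 1137 and 1272 bp in FK866, and 0 bp with succinate, with weaker peaks of 1138 and 600 bp there. A contrary case, at the start of Gm34483, 40444 bp upstream of Cd44 (chr2:102942113-102942873), had 576 and 542 bp in Control, 0 bp in both FK866 libraries, and 761 and 687 bp with succinate, with weaker FK866 peaks of 351 and 630 bp. Near Egr2, an immediate early gene, a member at the start of Gm40679 (chr10:67503096-67504230) had 431 and 1099 bp with succinate and no deposited peak of any strength in the other 4 libraries. These 3 were picked from the members with an lncRNA start after their values were seen.

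Of the 92 members of the ILC2 list, 2 were lost and 3 gained with FK866, 6 lost and 0 gained with succinate against FK866, and 9 lost and 0 gained with succinate against Control. The losses were 2.17%, 6.52% and 9.78% of the list, beside 3.54%, 5.72% and 6.17% of all members and 2.37%, 4.28% and 4.71% of all regions. limma called none of the 92 in any comparison, and the number at an unadjusted p under 0.05 was 1 wider and 1 narrower, 1 and 9, and 1 and 11 in the same order. The narrower ones were 1.09%, 9.78% and 12% of the list, beside 3.43%, 6.82% and 7.2% of all members, and the list's difference from them was not tested. Besides Tnfrsf18, losses with succinate against both other groups included one near Maf, a transcription factor gene (chr8:115726199-115727649), with 1209 and 1233 bp in Control, 1024 and 1117 bp in FK866 and 0 bp with succinate. The second succinate library held a weaker peak of 1218 bp there. Near Il10 (chr1:130990291-130990819) the lengths were 312 and 517, 482 and 344, and 0 and 0 bp, with a weaker peak in 1 succinate library. Near Il9 (chr13:56487879-56488511), lost against FK866 but not against Control, FK866 had 578 and 499 bp, Control 432 and 0 bp, and succinate 0 bp with weaker peaks in both libraries. The 3 gains with FK866 lay near Il10, Il4ra and Runx3. That near Il10 (chr1:130988974-130989947) had 0 bp in Control, 275 and 886 bp in FK866, and 0 and 778 bp with succinate, with a weaker peak of 695 bp in 1 Control library.

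The lists of metabolic genes had fewer members than the ILC2 list. Of 26 genes for NAD synthesis and use 7 (26.9%) were nearest to a member, with 11 members in all. Of 29 TCA cycle and succinate genes 9 (31.0%) had 14 members, and of 30 hypoxia and glycolysis genes 12 (40%) had 17. All 3 shares were above the 15.4% of all protein-coding genes, a difference that was not tested. The estimated change with FK866 was above 0 for 8 of the 11 NAD members and below 0 for 3, and with succinate against FK866 above 0 for 2 and below 0 for 9. For the TCA members it was above 0 for 7 and below for 7 with FK866, and 5 and 9 with succinate against FK866. The hypoxia and glycolysis members had 10 above and 7 below, then 5 and 12, in the same order. Over all members the estimates were above 0 for 2449 and below for 2735 with FK866, and above for 2194 and below for 2945 with succinate. limma called none of these metabolic members in any comparison.

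Nampt, the target of FK866, had 2 members. The one shared by all libraries (chr12:32795655-32796975) was covered over 1195 and 988 bp in Control, 1077 and 1190 bp in FK866, and 976 and 1050 bp with succinate, and the groups overlapped (3.18 points with FK866, limma adjusted p = 0.989). A member near Haao, an enzyme of NAD synthesis from tryptophan (chr17:83868293-83869626), had 420 and 616 bp in Control, 873 and 894 bp in FK866 and 0 bp with succinate, where weaker peaks of 721 and 892 bp were deposited (-66.2 points against FK866, limma adjusted p = 0.410). The other 10 NAD members had no loss or gain in any comparison.

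Slc25a10 encodes the mitochondrial carrier that exchanges succinate and other dicarboxylates for phosphate. Its member (chr11:120509931-120512018), picked from the TCA list after its values were seen, was covered over 1961 and 1974 bp in Control, 1128 and 1273 bp in FK866, and 1904 and 1881 bp with succinate. Both FK866 libraries were lower than the other 4, which lay close together. The change with FK866 was -36.7 points (adjusted p = 0.899) and that of succinate against FK866 was 33.1 points (adjusted p = 0.365), neither past the threshold of limma.

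Among hypoxia and glycolysis genes, the strongest member lay near Slc2a3, the gene of glucose transporter GLUT3 (chr6:122810271-122812264, percentile 97.9), with between 1740 and 1947 bp covered in every library. Hif1a, the oxygen-regulated transcription factor gene, had 4 members. One of them (chr12:73879564-73880878) had 1200 and 508 bp in Control, 1301 and 1097 bp in FK866, and 0 and 255 bp with succinate (-81.5 points against FK866, adjusted p = 0.365), while its widest (chr12:73952761-73954808) had between 1397 and 1771 bp in every library. Near Slc16a1, which encodes a lactate transporter, a member (chr3:104615910-104616980) had 810 and 1047, 786 and 647, and 0 and 0 bp, and was lost with succinate against both other groups, with weaker peaks of 710 and 925 bp.

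For signalling genes, 8 of 15 JAK and STAT genes (53.3%) had 17 members. Of 32 AP-1, NF-kB and immediate early genes 19 (59.4%) had 38 members. With succinate against FK866 the estimate was above 0 for 5 of the 17 and below 0 for 12, with a median of -16.5 points beside -3.18 over all members, and 1 (5.88%) was lost. That member, near Jak2 (chr19:29226445-29227363), had peaks in the FK866 libraries only, of 592 and 919 bp (weaker peaks of 919 and 629 bp with succinate), and was also the list's gain with FK866. Of the 38, 2 (5.26%) were lost and 2 (5.26%) gained in this comparison, beside 5.72% and 2.59% of all members and 4.28% and 1.72% of all regions. The 3 members near Fos had peaks in all 6 libraries, the widest covered over between 2263 and 2408 bp. None of the members of either list passed limma in any of the 3 comparisons.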

How the data were processed

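CUT&Tag was measured in 6 libraries of mouse colon ILC2s, 2 per group. The submitters' processing notes name cutadapt 1.9, Bowtie2 2.5.0 and the build mm10. The authors called peaks per library; the caller, its settings and the antibody are not stated in the labels or files. The deposited score follows the -log10 p, the deposited fold is a ratio to local background, and the deposited -log10 p and -log10 q refer to 1 library at a time. All were used only within a list. Each list depends on its library's depth, which is unknown as read counts.

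Peaks were merged with pandas 2.3.3 and numpy 2.4.6 (Python 3.11.15). Genes came from RefSeq GRCm38.p6, which shares the chromosome coordinates of mm10. The measure for tests was the percentage of a region covered by past-threshold peaks, so it reflects width and presence, not height. limma 3.58.1 (lmFit, eBayes with trend, R 4.3.3) was fitted to all 6 libraries and 29342 regions, with Benjamini-Hochberg adjustment at 0.05. Every adjusted p in the text is from it. The fit was checked on simulated data for FK866 against Control, with 200 regions changed by 20 or by 60 points. At the spread of these libraries it called 0% of these true changes at either size. With the spread scaled by 0.2 it called 97.5% of the changes of 60 points. The 0 calls here therefore cannot exclude changes of 60 points. Differences between libraries as a whole were tested with two-sided exact permutation over 6 arrangements (smallest p 0.333): members with a peak numbered 4012 ± 154 in Control, 3985 ± 249 in FK866 and 3625 ± 21.2 with succinate (SD, n = 2), with exact p of 1 for FK866 against Control and 0.333 for each comparison with succinate (adjusted 1, 0.5 and 0.5).

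Regions named are the 8 strongest and, for each comparison, the 3 with the smallest limma p. Named too are the 4 lost and 4 gained of each comparison with the greatest mean covered length where peaks were present. The strongest at ILC2, tRNA and microRNA genes, the loci with most members and those at the edges of the rule are named as well. Added to these are those marked as picked after their values were seen and members of the fixed gene lists. Members named from the metabolic and signalling lists, at lncRNA starts, at Mir210, Mirlet7i, Mir132 and Mir212 were picked after their values were seen. So were the ILC2 list members described near Maf, Il10 and Il9 and the other Il5 member, which are not the strongest members planned for that list. The members and lists were chosen with earlier results of these data known. Alternatives changed the threshold, list length, libraries, distance, gene types, overlap, normalization, measure and replicates. The libraries of a group share a replicate number with those of other groups, which the labels do not explain. No genome was used, so sequences are given only where RefSeq tables held them. One region that this rule names is not reported here.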

Additional observations from a re-analysis of the deposited data

How the results depend on the processing

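The counts rest on presence calls in 2 libraries a group and on lists whose depth is unknown, so a peak missing from a list may be weak instead of absent. With -log10 q above 2 (4079 members), members lost with FK866 numbered 96 (2.35%), and those gained with succinate 74 (1.81%) against FK866 and 88 (2.16%) against Control. With every deposited peak (10914 members), 573 (5.25%) were lost and 343 (3.14%) gained with FK866, 802 (7.35%) gained with succinate against FK866, and 506 (4.64%) lost and 647 (5.93%) gained against Control. With a peak in at least 3 libraries (4104 members) the counts were 84 lost and 85 gained with FK866, and 77 and 82 gained with succinate against FK866 and Control. Leaving out 1 library loosens the rule by construction. Lost and gained then ranged from 330 to 412 and 287 to 396 (FK866 against Control), 490 to 595 and 215 to 323 (succinate against FK866), and 535 to 598 and 234 to 305 (succinate against Control). Lists of equal length gave 213 lost and 145 gained, and 217 and 145, with succinate. For none of these settings were the shares over all regions computed. limma called 0 members under every setting, those that left out 1 library included. With this spread between libraries, 0 calls does not show that widths were alike.

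The median change of members with succinate against FK866 turned to 1.49 points with every deposited peak and to 0.73 under quantile normalization, which also turned that against Control to 0.85. Leaving out 1 library moved the median between -4.69 and 0 for succinate against FK866 (0 without FK866 1) and between -6.12 and -0.92 against Control (-0.92 without Control 2). Fitting the replicate number as a block left 0 calls and gave 133 wider and 142 narrower members at an unadjusted p under 0.05 for FK866, 106 and 310 for succinate against FK866, and 104 and 353 against Control. Deviations of same-numbered libraries correlated between -0.0044 and 0.0047 over regions, so the numbers show no pairing. Named lost and gained members often failed the call when every deposited peak counted. By the rule, a call then fails only where a weaker deposited peak lies in a library of the group without a past-threshold peak. Why those peaks were weaker was not tested.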

Other observations

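Members were unevenly spread over chromosomes. They made up between 15.3% (chromosome 5) and 22.0% (chromosome 12) of the regions with a peak in at least 2 libraries on the autosomes, 12.1% on X, and 8 of 18 on Y. All 8 on Y had the same nearest gene, Gm52481, and 5 of them had a peak in all 6 libraries. Members that only 2 libraries shared were no more frequent within groups than the pairs between groups with most of them. Seen in no other library were 102 in both Control libraries, 87 in both of FK866 and 59 in both with succinate, while Control 2 and FK866 1 shared 128 and FK866 2 with FK866 plus succinate 1 shared 42.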
